A study of Mus musculus with 2 samples.

Results

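The genes described here are 8 microRNA (miRNA) genes best known from organs other than the heart, measured in hearts of mouse embryos. They are Mir205 and Mir203, known from skin and other stratified epithelia, Mir375, known from endocrine cells, and Mir192, Mir194-1, Mir194-2 and Mir215, known from gut, kidney and liver. The last is Mir122, the main miRNA of hepatocytes. They were chosen by name, through the Ensembl identifier of each row, and all 8 were found among the 1973 miRNA genes listed in the deposited tables. The samples were hearts of B6NCrl embryos at embryonic day 16.5, healthy, of both sexes and with no treatment or engineered allele given. Each of the 2 libraries came from its own pool of hearts and is labelled a biological replicate of the same group. Replicate 2 pooled 41 embryos, and the pool size of replicate 1 is not given by the labels used here. A single group gives no conditions to compare, so the data bear on how much of each miRNA the heart libraries held and on how far the 2 pools differed.

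A miRNA gene is transcribed as a longer RNA, trimmed to a hairpin and then to a mature strand that can come from either arm of the hairpin, the 5p or the 3p arm. The mature strand pairs with messenger RNAs mainly through its seed, bases 2 to 8, and lowers their output, so miRNAs with the same seed are predicted to share targets. In skin, miR-203 promotes differentiation of keratinocytes and miR-205 is abundant in their progenitors. miR-375 restrains insulin secretion in pancreatic islets and is also abundant in pituitary and gut endocrine cells. The miR-192, miR-194 and miR-215 genes lie in a pair of clusters that are active in intestinal, renal and hepatic epithelium, and miR-122 supports lipid metabolism in the liver.

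RefSeq (GRCm38.p6) gave mature sequences for 7 of the 8 genes. They are printed 5′ to 3′ with the seed in capitals, because the seed shows which of these genes belong together and the full letters show which of them could share reads. Mir122 and the arm miR-375-3p are named only, and the statements on seeds do not cover them.
miR-205-5p (Mir205): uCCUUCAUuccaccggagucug
miR-203-3p (Mir203): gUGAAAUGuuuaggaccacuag
miR-375-5p (Mir375): gCGACGAGccccucgcacaaac
miR-192-5p (Mir192): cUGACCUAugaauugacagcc
miR-215-5p (Mir215): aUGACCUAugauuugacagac
miR-194-5p (Mir194-1 and Mir194-2): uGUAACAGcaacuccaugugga
miR-194-1-3p (Mir194-1): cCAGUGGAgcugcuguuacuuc
miR-194-2-3p (Mir194-2): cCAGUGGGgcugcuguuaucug
The printed arms fall into a miR-192 and miR-215 pair with the seed UGACCUA, a miR-194-5p pair with the seed GUAACAG, and arms whose seed no other printed arm has. miR-192-5p and miR-215-5p are each 21 bases long and differ at 3 positions counted from the 5′ end, C1A, A12U and C20A, all outside the seed. The 3p arms of the miR-194 genes differ at 4 of 22 positions, A8G, C19U, U20C and C22G, and the first of these changes the last base of the seed. Of the other RefSeq mature miRNAs, only Mir6926 and Mir7055 shared a seed with any arm of these 7 genes in that table, that of miR-194-2-3p. Mir6926 had 1 count in replicate 1 and 0 in replicate 2, and Mir7055 was not among the listed genes.

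The hairpins of Mir194-1 and Mir194-2 are printed next, with their longest common stretch in capitals, because it sets what the counts of these 2 genes can hold.
Mir194-1: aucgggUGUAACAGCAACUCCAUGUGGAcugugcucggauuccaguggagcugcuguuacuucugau
Mir194-2: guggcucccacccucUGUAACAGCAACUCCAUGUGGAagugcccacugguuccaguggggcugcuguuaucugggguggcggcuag
The common stretch is 22 bases long and is the whole of miR-194-5p. A read of exactly that arm matches both genes, and the authors' counting put such multiply matching reads in a line of their own and in neither gene. The counts of Mir194-1 and Mir194-2 can therefore hold only reads that reach past the common stretch or come from elsewhere in the hairpin, so both levels are uncertain. Among the 1894 hairpins compared, Mir194-1 and Mir194-2 were the only ones of the 8 genes to share a stretch of 20 bases with another listed hairpin. The longest stretch common to Mir192 and Mir215 was 10 bases.

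The genes lie on 4 chromosomes (mm10, with GENCODE M21 annotation). Mir194-1 (chromosome 1, 185313319 to 185313385, plus strand) and Mir215 (chromosome 1, 185313581 to 185313692, plus strand) are 195 bases apart. They lie in introns of Iars2, which is on the opposite strand. On their own strand, Mir194-1 is intronic in the transcript 2010103J01Rik, and Mir215 overlaps one of its exons. Mir194-2 (chromosome 19, 6264643 to 6264728, plus strand) and Mir192 (chromosome 19, 6264844 to 6264932, plus strand) are 115 bases apart and overlap no other annotated gene. Mir205 (chromosome 1, 193507463 to 193507530, minus strand) overlaps an exon of the long non-coding RNA 4631405K08Rik. Mir375 (chromosome 1, 74900658 to 74900721, minus strand) and Mir203 (chromosome 12, 112130880 to 112130955, plus strand) overlap no other annotated gene. Mir122 (chromosome 18, 65248861 to 65248926, plus strand) overlaps an exon of the long non-coding RNA AC157910.3.

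The libraries held 6473482 (replicate 1) and 5841568 (replicate 2) counts on the sense strand of the listed genes. Levels are counts per 1000000 of these totals (CPM). Of the listed genes, 365 were detected, meaning 10 or more counts in each library, and 1248 had no count in either. A count of 0 allows up to 0.463 CPM in replicate 1 and 0.514 CPM in replicate 2. Reads matching several places made up 29.5% and 31.9% of all reads and entered no gene total. The heart label was checked with the heart muscle miRNAs Mir208a, Mir208b and Mir499, which lie in myosin genes. All 3 were detected, and together they held 67703 CPM in replicate 1 and 67120 CPM in replicate 2. Other muscle miRNA genes had lower means, with Mir1a-1 at 2.41, Mir133a-1 at 2.67, Mir133b at 4.32 and Mir206 at 174 CPM. Whether reads counted in no gene account for these low values was not tested. Intervals and floors cover counting error only, since PCR copies are not independent molecules. Whether different miRNAs are read with equal efficiency was not tested, so the order of levels between genes is an order of read counts.

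All 8 genes were detected in both heart libraries. Together they held 17730 counts in replicate 1 and 16769 in replicate 2, which is 0.274% (Wilson 95% interval 0.270% to 0.278%) and 0.287% (0.283% to 0.291%) of sense counts, or 0.280% ± 0.0093 (SD, n = 2). The median level of the 8 genes was 308 CPM, against 108 CPM over all detected genes, and 5 of the 8 lay above that median. The highest gene exceeded the lowest, Mir194-2, 22.2-fold. In all these values the counts of Mir194-1 and Mir194-2 leave out reads of exactly miR-194-5p. Any other gene whose reads match several places lacks those reads too. How far this moves the share, the median over all detected genes and the ranks given below was not tested.

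The endocrine miRNA Mir375 was the highest of the 8, with 4991 counts (771 CPM) in replicate 1 and 4478 counts (767 CPM) in replicate 2. Its mean of 769 ± 3.12 CPM (SD, n = 2) placed it at rank 88 of all listed genes. The 2 libraries gave nearly the same value, and their Wilson 95% intervals, 750 to 793 CPM and 744 to 789 CPM, overlapped.

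Of the skin miRNAs, Mir205 had 3989 counts (616 CPM) in replicate 1 and 4925 counts (843 CPM) in replicate 2, a mean of 730 ± 160 CPM (SD, n = 2) and rank 91. Mir203 had 3773 counts (583 CPM) and 2939 counts (503 CPM), a mean of 543 ± 56.4 CPM (SD, n = 2) and rank 102. Mir205 was low in replicate 1 and high in replicate 2, and Mir203 the reverse. Their intervals did not overlap between libraries for either gene.

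In the gut, kidney and liver group, the counts of Mir194-1 and Mir194-2 lack the reads that match both of them. How far other genes stood above them is therefore uncertain. Of the remaining genes, Mir215 stood far above Mir192. It had 2965 counts (458 CPM) in replicate 1 and 2655 counts (455 CPM) in replicate 2, a mean of 456 ± 2.49 CPM (SD, n = 2). Mir192 had 441 counts (68.1 CPM) and 344 counts (58.9 CPM), a mean of 63.5 ± 6.53 CPM (SD, n = 2). These 2 genes carry the same seed, and no stretch of 20 bases is common to their hairpins.

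Mir194-1 had 318 counts (49.1 CPM) in replicate 1 and 279 counts (47.8 CPM) in replicate 2. Mir194-2 had 218 counts (33.7 CPM) and 207 counts (35.4 CPM). For both genes the values are close between libraries and leave out any read of exactly miR-194-5p. The liver miRNA Mir122 had 1035 counts (160 CPM) in replicate 1 and 942 counts (161 CPM) in replicate 2, and the intervals of its 2 values overlapped.

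**Figure D1:**
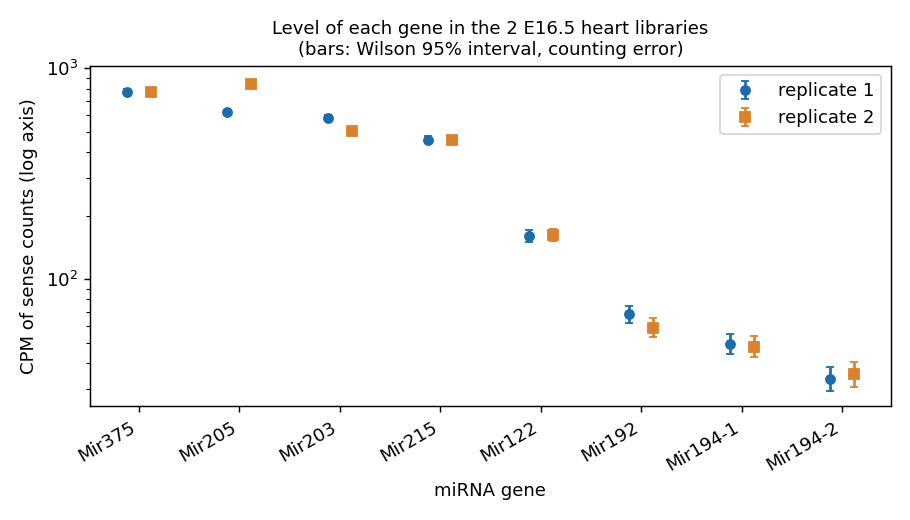
Level of each of the 8 genes in each heart library, in CPM of sense counts on a log axis, with circles for replicate 1, squares for replicate 2 and bars for Wilson 95% intervals. Mir205 (616 and 843 CPM) shows the widest gap between libraries, while Mir375, Mir215 and Mir122 nearly coincide.

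In order of mean level the genes were Mir375, Mir205, Mir203, Mir215, Mir122, Mir192, Mir194-1 and Mir194-2. Counts of the last 2 leave out reads of exactly miR-194-5p, so their places and ratios are uncertain. The order was the same in both libraries except for the first 2 genes. Mir375 exceeded Mir205 1.25-fold in replicate 1 and was 0.909 times its level in replicate 2, a log2 ratio of 0.093 ± 0.33 (SD, n = 2), so these neighbours did not differ beyond their spread. Nor did Mir205 and Mir203, at 0.41 ± 0.47. For the other 5 neighbouring pairs the mean log2 ratio was larger than its SD, from 0.25 ± 0.14 for Mir203 over Mir215 to 1.51 ± 0.017 for Mir215 over Mir122. The exact 95% interval lay above 0 in both libraries for each of these 5 pairs, and also for Mir205 over Mir203.

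Genes nearest in mean level were Mir467e (776 CPM) and Mir467d (759 CPM) for Mir375, Mir210 (742 CPM) and Mir467c (692 CPM) for Mir205, and Mir182 (549 CPM) and Mir195a (502 CPM) for Mir203. Mir215 stood between Mir433 (470.5 CPM) and Mir185 (442 CPM), and Mir122 between Mir574 (165 CPM) and Mir340 (152 CPM). Mir192 stood between Mir29c (64.6 CPM) and Mir345 (62.9 CPM), Mir194-1 between Mir30c-2 (48.6 CPM) and Mir138-1 (48.0 CPM), and Mir194-2 between Mir33 (34.6 CPM) and Mir222 (34.1 CPM). Likeness here means only a near mean over 2 libraries. Whether any of these neighbours lack reads that match several places was not tested.

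**Figure D2:**
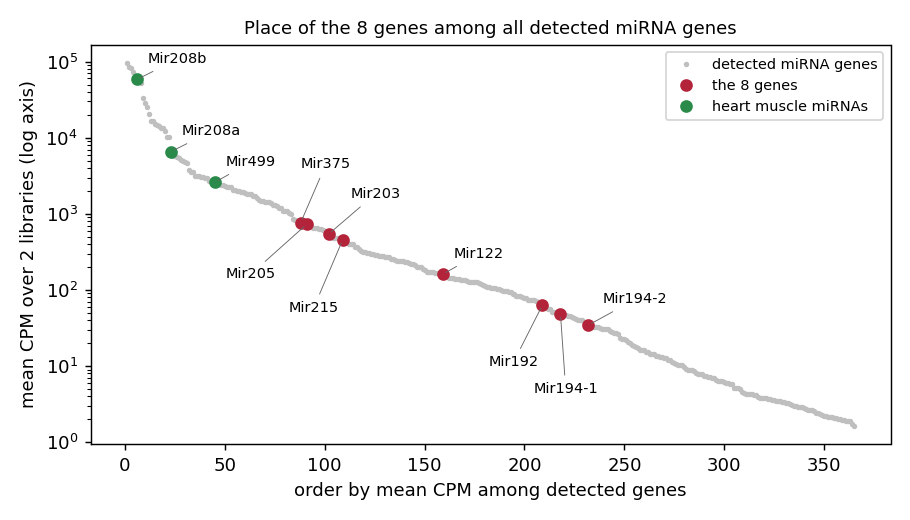
Mean CPM over the 2 libraries (log axis) against the order among the 365 detected genes, with the 8 genes in red, the heart muscle miRNAs Mir208a, Mir208b and Mir499 in green and all others in grey. The 8 genes span ranks 88 to 232, below all 3 heart muscle miRNAs.

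Within each library, ratios between clustered or related genes were then compared. Mir215 exceeded Mir192, which has the same seed, 6.72-fold in replicate 1 and 7.72-fold in replicate 2. The mean log2 ratio was 2.85 ± 0.14 (SD, n = 2). The exact 95% intervals, 2.60 to 2.90 and 2.79 to 3.11 on the log2 scale, overlapped. The heart libraries thus held more counts from the chromosome 1 copy than from the chromosome 19 copy in both pools.

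The same direction held for the miR-194 genes of these clusters, by less. Mir194-1, on chromosome 1, exceeded Mir194-2 1.46-fold and 1.35-fold, a log2 ratio of 0.49 ± 0.081 (SD, n = 2). Within the clusters, Mir215 exceeded Mir194-1 by a log2 ratio of 3.24 ± 0.021 and Mir192 exceeded Mir194-2 by 0.87 ± 0.20. Each of these 3 ratios lacks the reads of miR-194-5p that match both genes, and how far that moves them was not tested.

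The 2 skin miRNAs gave the only one of the 5 ratios whose intervals did not overlap between libraries. Mir205 exceeded Mir203 1.06-fold in replicate 1 and 1.68-fold in replicate 2, and the log2 ratio was 0.080 (exact 95% interval 0.016 to 0.14) and 0.74 (0.68 to 0.81). Mir205 was the higher gene in both libraries, by little in replicate 1 and by more in replicate 2.

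**Figure D3:**
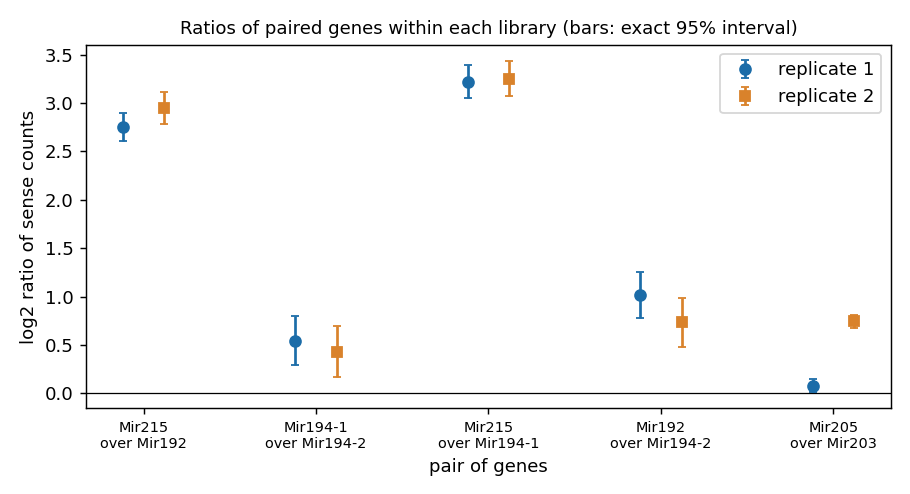
Log2 ratio of sense counts for 5 pairs of genes within each library, with circles for replicate 1, squares for replicate 2 and bars for exact 95% intervals. The intervals of the 2 libraries overlap for the first 4 pairs and are apart for Mir205 over Mir203 (0.080 and 0.74).

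The pools were set against each other with an exact binomial test for each gene (two-sided, library sizes scaled by TMM in edgeR, Benjamini-Hochberg adjustment over the 365 detected genes). It compares these 2 libraries through counting error alone, not conditions. Of all genes tested, 46.3% passed at an adjusted p under 0.05, 26.0% higher and 20.3% lower in replicate 2. Of the 8 genes, Mir205 was higher, Mir203 was lower and 6 did not pass. With a minimum of 2-fold, 3.29% of all genes and 0 of the 8 passed. The median log2 ratio of replicate 2 over replicate 1 was 0.016 for the 8 genes and 0.018 for all tested, and the median absolute log2 ratio was 0.069 against 0.21. Of the 137 other genes between Mir194-2 and Mir375 in level, 54.7% passed and the median absolute log2 ratio was 0.16.

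Mir205 was 1.39-fold higher in replicate 2, a log2 ratio of 0.48 (exact 95% interval 0.42 to 0.54, adjusted p = 8.74e-54 by the exact binomial test). Its absolute log2 ratio ranked 82 among the 365 genes. Mir203 was 1.14-fold lower in replicate 2, with a log2 ratio of -0.19 (-0.26 to -0.12, adjusted p = 5.3e-07 by the same exact test), a size under the median of all genes.

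Mir192 had nearly the same log2 ratio as Mir203, -0.18 against -0.19, but did not pass (interval -0.39 to 0.022, adjusted p = 0.145 by the exact binomial test). Mir192 had 441 and 344 counts against 3773 and 2939 for Mir203, and its wider interval holds both 0 and the ratio of Mir203. Mir375 stood at 0.017 (-0.041 to 0.076) and Mir215 at 0.014 (-0.062 to 0.090), and both signs turned negative when the sense totals or DESeq2 size factors set the scale. Mir122 stood at 0.038 (-0.091 to 0.17), Mir194-1 at -0.015 (-0.25 to 0.22) and Mir194-2 at 0.099 (-0.18 to 0.38). The intervals of Mir375, Mir215 and Mir122 reach no further than 0.17 from 0 on the log2 scale, and those of the miR-194 genes reach up to 0.38.

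**Figure D4:**
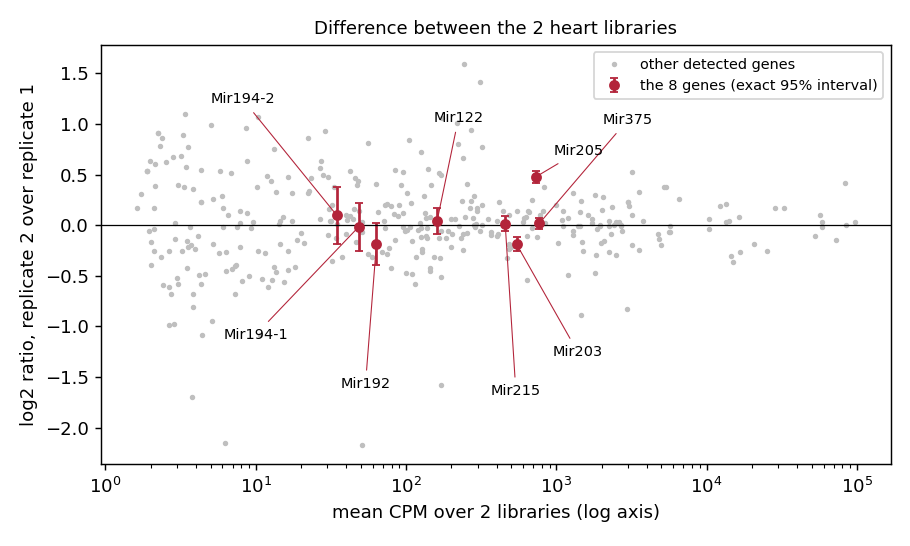
Log2 ratio of replicate 2 over replicate 1 against mean CPM (log axis) for the 365 detected genes, with the 8 genes in red with exact 95% intervals and the others in grey. Mir205 lies above 0 and Mir203 below it, and the intervals of the 6 other labelled genes include 0.

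Markers of other tissues were set beside these values. In bulk tissue, fewer cells of a type and less RNA per cell cannot be told apart. The 8 genes of other epithelial miRNAs were all detected and summed to 5918 CPM in replicate 1 and 4470 CPM in replicate 2, above the 8 genes described here in both libraries. They were led by Mir429, an epithelial miRNA of the miR-200 family, at 1819 ± 443 CPM (SD, n = 2). Of the 8, 7 were lower in replicate 2 and 1, Mir182, was higher, where 20.3% of all genes were lower and 26.0% higher. These 8 genes lie in shared clusters, so they are not 8 independent observations. The 5 miR-200 genes had log2 ratios from -0.48 for Mir429 to -0.54 for Mir200b. They ran the other way from Mir205 (0.48) and the same way as Mir203 (-0.19).

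The lung and ciliated epithelium list (4 of 5 detected) summed to 2249 CPM in replicate 1 and 1326 CPM in replicate 2, with Mir449a, a miRNA of multiciliated cells, at 1463 ± 635 CPM (SD, n = 2). Of its 4 detected genes, 2 were lower in replicate 2 and 2 did not pass. The share that passed is near the 46.3% of all genes that passed in either direction, and 20.3% of all genes were lower. The 2 skin genes summed to 1199 and 1346 CPM. What part such cells have in the level of any of the 8 genes was not tested.

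The endocrine list held Mir375 and the 3 miR-7 genes, which are known from islets and pituitary. It summed to 816 CPM in replicate 1 and 815 CPM in replicate 2, and nearly all of the reads counted were from Mir375. Whether reads counted in no gene account for the low miR-7 values was not tested. Mir7-1 had 205 and 170 counts, Mir7-2 had 24 and 19, and Mir7b had 64 and 96. Mir7b was higher in replicate 2, and the other 3 did not pass. The gut, kidney and liver list summed to 609 and 597 CPM and had 0 of 4 genes past the test, while 46.3% of all genes passed.

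Blood miRNAs (4 of 4 detected) summed to 2518 CPM in replicate 1 and 2210 CPM in replicate 2, led by the erythroid Mir451a at 1511 ± 209 CPM (SD, n = 2), which was lower in replicate 2. It was the 1 gene of the 4 to pass, against 46.3% of all genes. The endothelial Mir126a stood at 85049 ± 1170 CPM (SD, n = 2), 30.3 times the sum of the 8 genes, and the 3 heart muscle miRNAs, led by Mir208b at 58261 ± 1172 CPM, at 24.0 times that sum. The neural list held only miR-124 and miR-9 genes, which were at or near 0. Of the 5 listed, Mir124a-3 and Mir9-2 had 0 counts in both libraries, Mir124a-1 and Mir124a-2 had 1 count in replicate 1 and 0 in replicate 2, and Mir9-3 had 16 and 1. The miR-124 and miR-9 copies can share reads, which were counted in no gene, so the low sum does not show that these miRNAs were absent. Neural miRNAs outside the list are not covered by it.

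**Figure D5:**
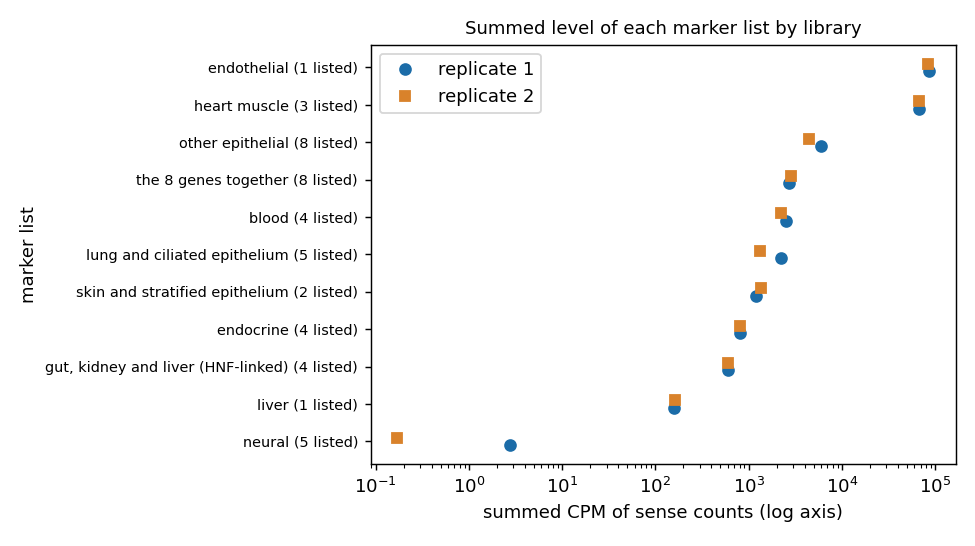
Summed CPM of sense counts (log axis) for the 8 genes together and for each marker list, with circles for replicate 1 and squares for replicate 2. The 8 genes (2739 and 2871 CPM) lie below the other epithelial list and far below the heart muscle and endothelial lists. The neural list, of miR-124 and miR-9 genes whose copies can share reads, is near 0.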

How the data were processed

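MicroRNA-seq was made from 2 pools of embryonic hearts, and each pool gave 1 library. The deposited files hold raw read counts per miRNA gene, made on mm10 with annotation M4 per the file lists deposited with each library. Aligner, counter, trimming and the strand of each column are not given in the sources used here. A table has 3 count columns (either strand and each strand), and of the strand columns, the one with more gene counts in both libraries was taken as sense. Its first 4 lines count reads outside any gene (unmapped, multiply matching, no feature, ambiguous), and they entered no gene total.

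Identifiers were matched without version to GENCODE M21 (1894 of 1973 genes, and all 8 described here). CPM used the sense total. Log2 ratios used TMM-scaled counts (edgeR 4.0.16, R 4.3.3) with 0.5 added to each count. With 1 group, edgeR's quasi-likelihood test had no contrast to test, so libraries were compared by an exact binomial test (scipy 1.17.1). It was tried on simulated counts with counting error alone, which did not cover spread between pools. Pair ratios carry exact Clopper-Pearson intervals.

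The genes, lists and tests were chosen with earlier results of these data known. Genes named were the 8, their nearest neighbours in mean level, the highest gene of each marker list and genes sharing a seed or a 20-base stretch. Members of the marker lists named besides these were picked after their values were seen. Other settings tried were scaling by the sense total or by size factors of DESeq2 1.42.0, every gene with a count, the unstranded column, all reads as denominator, a 2-fold minimum and each replicate left out.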

Additional observations from a re-analysis of the deposited data

Results flagged for a closer look

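The strand column that the levels leave out held counts at 2 of the 8 genes in both libraries, above the 3 counts that a count of 0 allows. At Mir203 there were 43 opposite-strand counts in replicate 1 and 35 in replicate 2, or 1.13% and 1.18% of reads of either strand there. RefSeq places the mature arms of miR-203b on that strand within the Mir203 hairpin (Gm51289, chromosome 12), and whether these counts come from it was not tested. At Mir122 there were 6 opposite-strand counts in replicate 1 and 6 in replicate 2, or 0.576% and 0.633%. Over all listed genes the opposite strand held 5.70% and 6.10% of counts.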

How the results depend on the processing

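With the unstranded column over its own total, mean levels moved beyond their SD for Mir375 (723 CPM), Mir215 (429 CPM), Mir122 (152 CPM), Mir194-1 (45.9 CPM) and Mir194-2 (32.5 CPM), and the share of the 8 genes moved to 0.265%. Per 1000000 of all reads, a larger denominator, levels were 338 for Mir375, 322 for Mir205, 238 for Mir203, 200.5 for Mir215, 70.6 for Mir122, 27.8 for Mir192, 21.3 for Mir194-1 and 15.2 for Mir194-2, in the same order. With sense-total scaling the log2 ratio of Mir375 turned to -0.0083 and that of Mir215 to -0.011, and with DESeq2 size factors to -0.00044 and -0.0033, none past the test. A 2-fold minimum left 12 of the 169 genes past the test, and 0 of the 8 genes against 2 without it. Mir205 and Mir203 kept their direction and passed under both other scalings, without a count filter and with the unstranded column. Without replicate 1 the log2 ratio of Mir205 over Mir203 was 0.74 and without replicate 2 it was 0.080. No paired analysis was possible because the labels give a single group. Depth limits Mir192, Mir194-1 and Mir194-2 most, with 207 to 441 counts per library.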
